A study of Rattus norvegicus with 12 samples.

Results

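The genes described here are 36 genes of macrophages and other myeloid cells, chosen by their symbols in the array annotation. Of these, 34 were measured, each by 1 transcript cluster (the probes that the array design assigns to 1 gene), out of 14300 genes and 27342 clusters in all. Msr1, a scavenger receptor, and Csf2ra, a subunit of the GM-CSF receptor, had no cluster under their symbol in the annotation used here and have no value. The study compared 3 zones of cartilage, dissected by hand from the proximal tibial epiphysis of 10-day-old Sprague-Dawley rats and hybridized to Affymetrix Rat Gene 1.0 ST arrays. The superficial zone (SZ) of articular cartilage, which faces the joint space, was measured on 4 arrays, each with tissue from 2 tibias of 1 rat. Below it lies the intermediate/deep zone (IDZ), also articular cartilage, and the growth plate gave its resting zone (RZ); each was measured on 4 arrays, and every one of these held 4 pieces of tissue pooled from 2 rats. Of the 8 rats, those numbered 5 to 8 gave the SZ samples, and IDZ and RZ samples with the same replicate number came from the same pair of rats. No treatment or genotype was compared, and all rats were of the same strain and age.

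Macrophages are phagocytes that live in nearly every tissue, and in joints they are known mainly from the synovial lining and from the surroundings of blood vessels. They depend on the growth factor receptor Csf1r and on the transcription factor PU.1, encoded by Spi1, which binds a purine-rich core sequence in the promoters of many myeloid genes. They take up debris and microbes through surface receptors, digest them in lysosomes and pass signals through small adaptor proteins that they share with other leukocytes, while cartilage itself is known as a tissue poor in vessels and in leukocytes.

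Promoters from RefSeq (rat build GRCr8) were at hand for 25 of the 36 genes and are shown because most of these genes moved together between the zones. The PU.1 core GAGGAA was searched for on both strands, the other strand reading TTCCTC, and no other motif was searched. In the window from 250 bases before to 50 bases after the start of transcription, 16 of the 25 promoters held the core, as did 27.6% of all 33469 promoters in the same table. In the 100 bases before the start, a window chosen after the matches were seen, 12 of the 25 held it and 9.78% of all promoters did. The sequences below are these 100 bases, 5′ to 3′ on the strand of the gene and ending at the base before the start, with the core in capitals. For each role group they show the gene with the largest difference between SZ and IDZ among those with a promoter at hand. Coro1a is shown because Lcp1, which leads its group, had no promoter at hand. A match is a description of the letters and no evidence of binding, and a promoter without capitals only lacks these letters in this window.
Csf1r (chr18:56834279-56834378, plus strand): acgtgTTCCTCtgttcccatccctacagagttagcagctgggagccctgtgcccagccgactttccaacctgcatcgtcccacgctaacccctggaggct
Ctss (chr2:185775296-185775395, plus strand): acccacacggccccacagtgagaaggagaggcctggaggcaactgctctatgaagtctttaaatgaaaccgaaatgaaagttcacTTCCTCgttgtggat
C1qa (chr5:154419934-154420033, minus strand): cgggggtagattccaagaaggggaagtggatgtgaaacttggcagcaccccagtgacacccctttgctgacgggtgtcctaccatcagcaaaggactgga
Mrc1 (chr17:82157625-82157724, plus strand): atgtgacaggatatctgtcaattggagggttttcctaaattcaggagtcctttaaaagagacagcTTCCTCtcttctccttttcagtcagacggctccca
Cybb (chrX:16065066-16065165, minus strand): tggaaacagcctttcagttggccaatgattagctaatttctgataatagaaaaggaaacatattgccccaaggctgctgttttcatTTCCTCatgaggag
Coro1a (chr1:190731104-190731203, minus strand): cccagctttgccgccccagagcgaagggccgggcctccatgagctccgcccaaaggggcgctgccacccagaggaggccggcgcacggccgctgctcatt
Cd53 (chr2:197087897-197087996, minus strand): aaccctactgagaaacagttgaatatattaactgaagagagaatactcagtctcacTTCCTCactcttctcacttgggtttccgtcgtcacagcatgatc
Cx3cr1 (chr8:128677067-128677166, minus strand): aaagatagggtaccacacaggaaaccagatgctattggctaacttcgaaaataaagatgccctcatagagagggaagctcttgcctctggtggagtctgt

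The values are the authors' normalized signals on a log2 scale, so that a difference of 1 stands for 2-fold, and signals of different genes are not comparable because each has its own probes. The median over all clusters lay between 6.76 and 6.90 on the 12 arrays, and SZ replicate 4 had the narrowest interquartile range (2.24, against 2.50 to 2.91 on the others). The chondrocyte markers stood high in every zone, with a mean level of 11.52 to 11.87 in SZ, 12.66 to 12.74 in IDZ and 12.58 to 12.78 in RZ. The joint surface gene Prg4 was higher on every SZ array (12.53 to 12.97) than on any other. It was also far higher in IDZ (8.86 to 10.95) than in RZ (5.24 to 6.40). The number of arrays limits the precision.

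Most of the myeloid genes had a higher mean signal in SZ than in IDZ, whether or not they passed the test. This held in all 9 role groups into which they were sorted, and the largest difference was 6.53-fold (Ctss). A gene is counted here at a limma p under 0.05 after Benjamini-Hochberg adjustment across the whole array. These p-values set a difference against the spread between arrays within zones, pooled over the 3 zones and moderated across clusters. A wider spread in SZ, where each array held 1 rat, is thus averaged with that of the pools in IDZ and RZ. Of the 34 genes, 28 were higher in SZ (11.8% of all clusters were) and 0 were lower (11.2% of all clusters were), and at an unadjusted p under 0.05 these numbers were 30 and 0. With a minimum difference of 2-fold, 23 were higher in SZ, against 2.96% of all clusters. The median difference over the 34 genes was 1.28, and that over all clusters was −0.08. In dissected tissue a smaller number of cells of a type cannot be told apart from less RNA per cell, and this holds for every comparison below.

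The same genes stood out against RZ. Of the 34, 28 were higher in SZ than in RZ (10.0% of all clusters were) and 0 were lower (11.1% were), or 30 and 0 at an unadjusted p under 0.05, and 21 were higher by at least 2-fold (3.19%). The median difference was 1.28, against −0.03 over all clusters. The 28 genes higher in SZ were the same in both comparisons, which share the SZ arrays. For 25 genes every SZ array stood above every IDZ and every RZ array, which was so for 7.28% of all clusters.

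**Figure D1:**
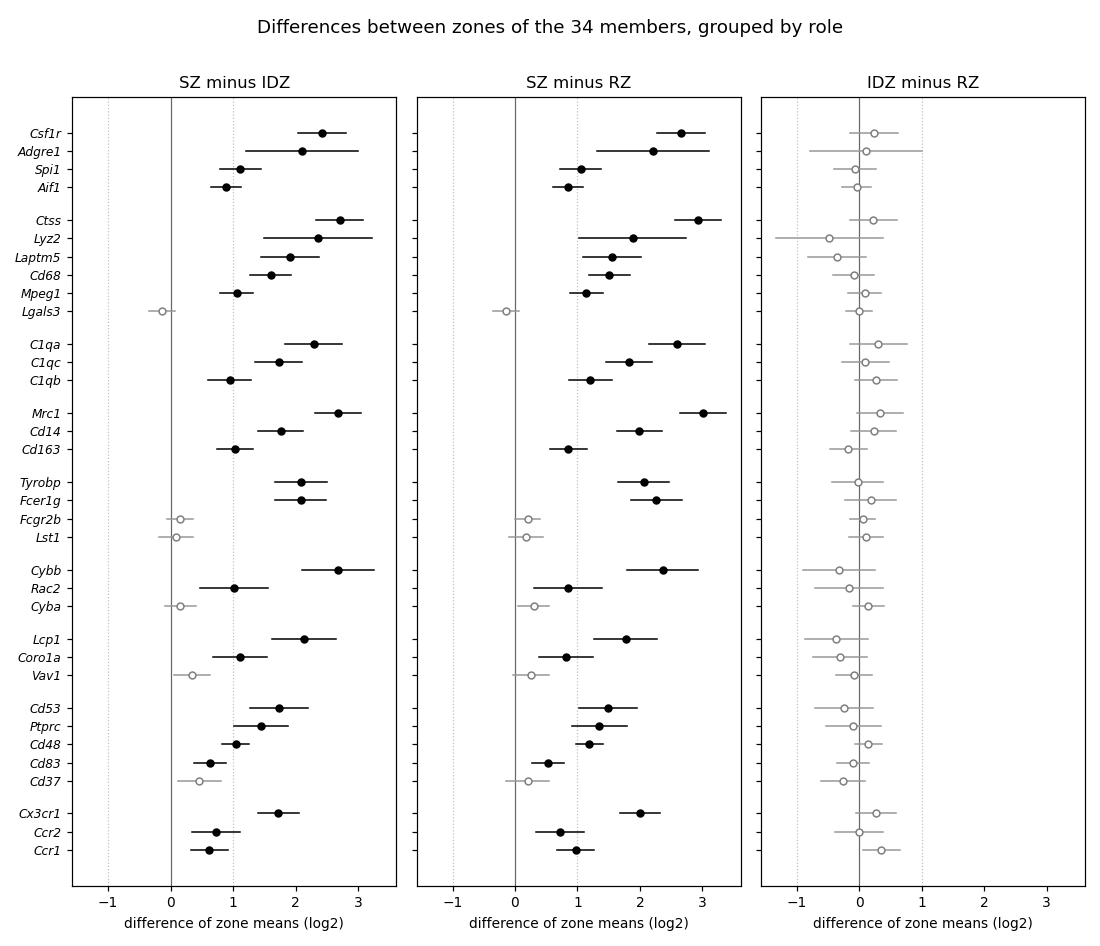
Differences between zone means on the log2 scale (x axis) for the 34 genes (y axis, grouped by role) in SZ minus IDZ, SZ minus RZ and IDZ minus RZ, with 95% confidence intervals of limma as bars, filled points for an adjusted p under 0.05 and dotted lines at 2-fold. In both SZ panels 28 points are filled, all to the right of 0, and in the IDZ minus RZ panel none is.

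Among the receptors and the factor that mark the myeloid lineage, all 4 measured genes were higher in SZ than in both other zones. Csf1r, the receptor for the growth factors CSF1 and IL-34, had log2 signals of 9.83, 10.21, 9.76 and 9.40 on SZ replicates 1 to 4, against 7.37, 7.57, 7.46 and 7.09 in IDZ and 6.82, 7.50, 7.34 and 6.89 in RZ. The lowest SZ array thus lay well above the highest array of either other zone. Csf1r was 5.38-fold higher in SZ than in IDZ (2.43 ± 0.18 on the log2 scale, standard error, adjusted p = 1.5e-07) and 6.33-fold higher than in RZ (2.66 ± 0.18, adjusted p = 3.1e-08). Adgre1, a surface protein that marks macrophages in mice, had signals of 6.68, 9.16, 8.15 and 6.48 in SZ, against 5.61, 5.23, 5.75 and 5.47 in IDZ and 5.27, 5.61, 5.52 and 5.23 in RZ. It was the most uneven of the 34 genes within SZ, with a range of 2.67, and its difference from IDZ of 2.10 ± 0.42 (adjusted p = 0.0018) ran between 1.59 without SZ replicate 2 and 2.48 without SZ replicate 4. Spi1 was higher in SZ by 1.12 against IDZ and 1.05 against RZ, and Aif1, a calcium-binding protein of macrophages, by 0.89 and 0.84, with SZ signals between 6.13 and 6.28 on all 4 arrays.

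**Figure D2:**
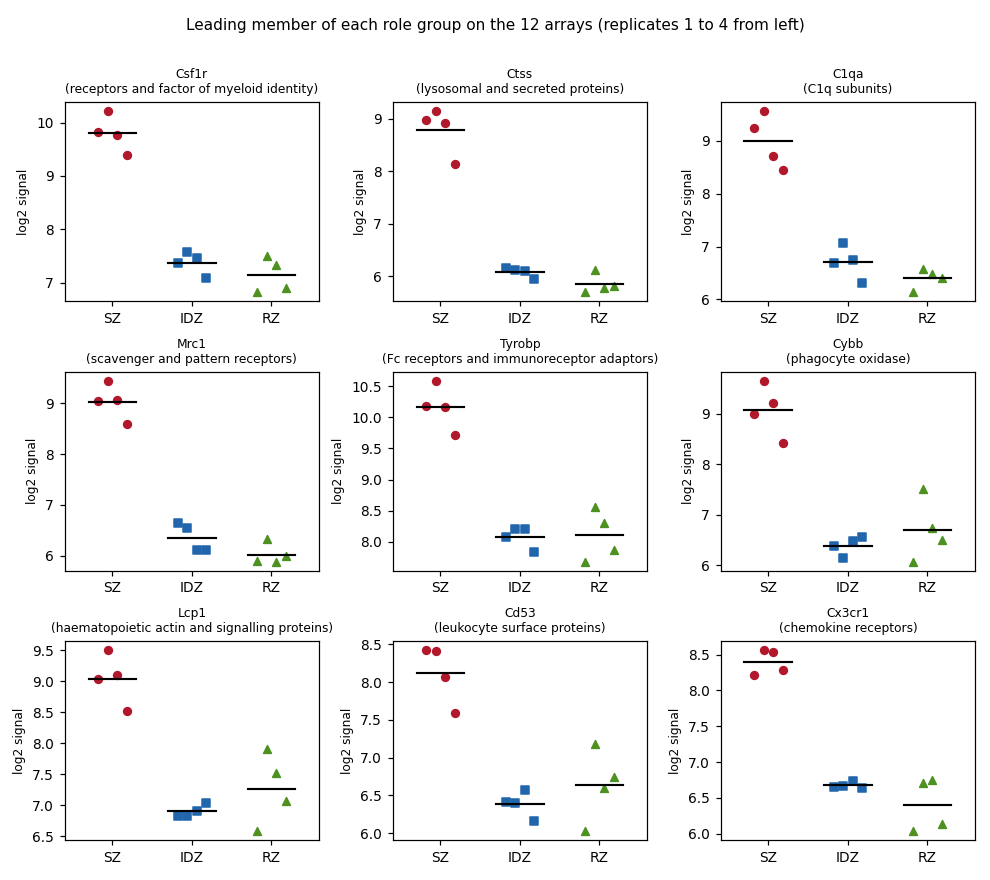
Log2 signals (y axes, each with its own range) of the gene with the largest SZ minus IDZ difference in each of the 9 role groups, in SZ, IDZ and RZ (x axis), with 1 point per array and a bar at the mean of 4 arrays. In all 9 panels the 4 SZ points lie above all IDZ and RZ points, and RZ replicate 2 is the highest RZ point in 8 of them.

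Of 6 lysosomal and secreted proteins, 5 were higher in SZ. Ctss, the lysosomal protease cathepsin S, had signals of 8.97, 9.14, 8.92 and 8.13 in SZ, against 6.16, 6.13, 6.10 and 5.95 in IDZ and 5.70, 6.13, 5.77 and 5.83 in RZ. It showed the largest SZ minus IDZ difference of the 34 genes, 2.71 ± 0.17 (adjusted p = 4.1e-08), and was 7.63-fold higher in SZ than in RZ (2.93 ± 0.17, adjusted p = 7.9e-09). Lyz2, a lysozyme that breaks bacterial cell walls, had signals of 10.62, 11.39, 10.94 and 9.87 in SZ, against 7.92, 8.21, 8.14 and 9.10 in IDZ and 7.57, 9.80, 9.02 and 8.90 in RZ. The groups did not overlap, but the gap between SZ replicate 4 and RZ replicate 2 was only 0.07, and the differences were 2.36 ± 0.40 against IDZ (adjusted p = 0.00047) and 1.88 ± 0.40 against RZ (adjusted p = 0.0028). The rat has further lysozyme genes of similar sequence, so that the Lyz2 signal may not come from this gene alone. Laptm5 and Cd68, membrane proteins of lysosomes, and Mpeg1, a pore-forming protein of phagosomes, were higher in SZ than in IDZ by 1.91, 1.60 and 1.06, and higher than in RZ by 1.55, 1.51 and 1.14.

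Lgals3 went against its group. This gene encodes galectin-3, a sugar-binding protein that macrophages secrete and that chondrocytes also make. Its signals were 9.85, 9.97, 9.73 and 9.58 in SZ, against 9.96, 9.98, 9.77 and 9.95 in IDZ and 9.95, 10.01, 9.83 and 9.90 in RZ, so the zones overlapped. The difference was −0.13 against IDZ, with a 95% interval from −0.34 to 0.08 (adjusted p = 0.38), and −0.14 against RZ, from −0.35 to 0.07 (adjusted p = 0.40).

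The 3 subunits of C1q, the complement component that macrophages secrete and that binds antibody complexes and dying cells, were all higher in SZ. C1qa had signals of 9.24, 9.56, 8.71 and 8.45 in SZ, against 6.69, 7.07, 6.74 and 6.31 in IDZ and 6.14, 6.57, 6.48 and 6.40 in RZ, and differed by 2.29 ± 0.21 from IDZ (adjusted p = 1.4e-06) and by 2.59 ± 0.21 from RZ (adjusted p = 2.4e-07). C1qc differed by 1.73 ± 0.18 from IDZ (adjusted p = 3.4e-06) and by 1.83 ± 0.18 from RZ. C1qb differed by 0.95 ± 0.16 and 1.21 ± 0.16, so it passed 2-fold against RZ and not against IDZ. Within SZ the subunits did not share an order. C1qa was lowest on SZ replicate 4, where C1qb was highest (8.43, 8.23, 7.72 and 8.45 on SZ replicates 1 to 4).

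All 3 measured scavenger and pattern receptors were higher in SZ. Mrc1, the mannose receptor, had signals of 9.04, 9.44, 9.06 and 8.58 in SZ, against 6.64, 6.55, 6.11 and 6.12 in IDZ and 5.89, 6.33, 5.89 and 5.99 in RZ. Its 8.03-fold difference from RZ (3.01 ± 0.17, adjusted p = 6.2e-09) was the largest of any member in any comparison, and it was 6.39-fold higher in SZ than in IDZ (2.68 ± 0.17, adjusted p = 4.7e-08). Cd14, the co-receptor for bacterial lipopolysaccharide, had signals of 8.66, 9.12, 8.40 and 8.05 in SZ, against 6.82, 6.85, 6.87 and 6.63 in IDZ and 6.49, 6.62, 6.66 and 6.48 in RZ. None of its SZ arrays reached down to the other zones, and the differences were 1.76 ± 0.17 (adjusted p = 1.8e-06) and 1.99 ± 0.17 (adjusted p = 3.5e-07). Cd163, the receptor for haemoglobin bound to haptoglobin, was even within SZ (6.86, 6.81, 6.70 and 6.75) and higher by 1.03 against IDZ and by 0.86 against RZ.

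The Fc receptors and immunoreceptor adaptors split into a pair that differed strongly and a pair that did not pass. Tyrobp, the adaptor DAP12, had signals of 10.18, 10.59, 10.17 and 9.72 in SZ, against 8.08, 8.20, 8.21 and 7.83 in IDZ and 7.68, 8.56, 8.31 and 7.88 in RZ. Fcer1g, the gamma chain shared by several Fc receptors, had 9.05, 9.82, 9.36 and 8.95 in SZ, against 7.12, 7.22, 7.28 and 7.24 in IDZ and 6.77, 7.53, 7.15 and 6.67 in RZ. Both were lowest in SZ on replicate 4 and still clear of every other array. Tyrobp was higher in SZ by 2.09 ± 0.19 against IDZ (adjusted p = 1.5e-06) and by 2.06 ± 0.19 against RZ (adjusted p = 1.2e-06), and Fcer1g by 2.08 ± 0.19 (adjusted p = 1.4e-06) and 2.26 ± 0.19 (adjusted p = 3.7e-07). Fcgr2b, the inhibitory Fc receptor, differed by 0.15 from IDZ (95% interval from −0.05 to 0.35, adjusted p = 0.29) and by 0.20 from RZ (adjusted p = 0.16). It lies near related receptor genes, whose transcripts its probes may also detect. Fcgr2b was also dim, with a mean signal of 5.45 over the 12 arrays, and differences on the log2 scale are compressed at such signals. Without SZ replicate 4, Fcgr2b passed against RZ (0.25, adjusted p = 0.043). Leaving out this array added calls over all clusters, which also bears on the genes below that passed without it. Clusters higher and lower in SZ than in RZ went from 2747 and 3026 to 3702 and 4174. Against IDZ they went from 3226 and 3064 to 4953 and 6414. Lst1, a transmembrane protein of leukocytes, differed by 0.08 from IDZ (from −0.19 to 0.35, adjusted p = 0.71) and by 0.18 from RZ (adjusted p = 0.41), and the sign of the first value turned without SZ replicate 4 (−0.020).

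The membrane parts of the phagocyte oxidase, the enzyme that makes superoxide against microbes, did not move alike. Cybb, its catalytic subunit, had signals of 8.99, 9.65, 9.21 and 8.42 in SZ, against 6.38, 6.14, 6.47 and 6.55 in IDZ and 6.07, 7.51, 6.74 and 6.51 in RZ. It was 6.41-fold higher in SZ than in IDZ (2.68 ± 0.27, adjusted p = 3.1e-06) and 5.14-fold higher than in RZ (2.36 ± 0.27, adjusted p = 8.8e-06). Cyba, the partner subunit, which many other cells express as well, had 8.26, 8.43, 8.07 and 7.87 in SZ, against 7.87, 8.10, 8.08 and 7.95 in IDZ and 7.84, 7.98, 7.85 and 7.75 in RZ. These values overlapped, and the difference was 0.16 against IDZ (95% interval from −0.09 to 0.40, adjusted p = 0.37) and 0.30 against RZ (from 0.05 to 0.55, adjusted p = 0.084). Without SZ replicate 4, Cyba was 0.40 above RZ (adjusted p = 0.0067). Rac2, the GTPase that switches the oxidase on in blood cells, had 8.10, 9.11, 8.26 and 8.07 in SZ, against 7.05, 7.32, 7.60 and 7.49 in IDZ and 7.08, 8.24, 7.65 and 7.16 in RZ. RZ replicate 2 reached into the SZ range. Rac2 was higher in SZ than in IDZ by 1.02 ± 0.25 (adjusted p = 0.0084) and than in RZ by 0.85 ± 0.25 (adjusted p = 0.025), and the second call was lost without SZ replicate 2, RZ replicate 1 or RZ replicate 4 (adjusted p = 0.071, 0.092 and 0.087). Rac2 also missed the threshold against RZ with ordinary one-way contrasts (adjusted p = 0.094) and in the limma fit of these 2 zones alone (adjusted p = 0.061), and against both zones by the overall one-way test (adjusted p = 0.075).

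Of 3 actin and signalling proteins of blood cells, 2 were higher in SZ. Lcp1, the actin-bundling protein L-plastin, had signals of 9.04, 9.50, 9.10 and 8.51 in SZ, against 6.83, 6.83, 6.91 and 7.03 in IDZ and 6.58, 7.90, 7.52 and 7.07 in RZ, with differences of 2.14 ± 0.24 (adjusted p = 8.5e-06) and 1.77 ± 0.24 (adjusted p = 4.5e-05). Coro1a, the actin regulator coronin 1A, was higher in SZ by 1.12 ± 0.20 against IDZ (adjusted p = 0.00078) and 0.81 ± 0.20 against RZ (adjusted p = 0.0084), although its RZ replicate 2 (7.30) lay above its SZ replicate 4 (7.15). Vav1, an exchange factor for Rac proteins, differed by 0.34 from IDZ (95% interval from 0.06 to 0.63, adjusted p = 0.079) and by 0.26 from RZ (adjusted p = 0.22), and passed against IDZ without SZ replicate 4 (0.41, adjusted p = 0.022).

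Among 5 leukocyte surface proteins, Cd53, Ptprc, Cd48 and Cd83 were higher in SZ than in both other zones. Cd53, a tetraspanin of leukocytes, had signals of 8.42, 8.41, 8.07 and 7.60 in SZ, against 6.42, 6.40, 6.57 and 6.16 in IDZ and 6.03, 7.18, 6.60 and 6.74 in RZ, and differed by 1.74 ± 0.22 (adjusted p = 2.6e-05) and 1.49 ± 0.22 (adjusted p = 9.9e-05). Ptprc, the pan-leukocyte phosphatase CD45, had 7.27, 7.78, 7.28 and 6.64 in SZ, against 5.80, 5.46, 5.75 and 6.15 in IDZ and 5.67, 6.18, 5.69 and 6.02 in RZ. Its lowest array in SZ was again replicate 4, above all arrays of the other zones, with differences of 1.45 ± 0.20 (adjusted p = 8.9e-05) and 1.35 ± 0.20 (adjusted p = 0.00015). Cd48, an adhesion protein of leukocytes, was higher by 1.04 and 1.19, and Cd83, a protein of activated dendritic cells and lymphocytes, by 0.63 and 0.53. Cd37, a tetraspanin best known from B cells, differed by 0.46 from IDZ (95% interval from 0.11 to 0.81, adjusted p = 0.055), where the arrays did not overlap, and by 0.20 from RZ (adjusted p = 0.49), where they did. It passed against IDZ at adjusted p-values of 0.024 to 0.048 under several other settings, among them the fit of these 2 zones alone and the fits without SZ replicate 3, SZ replicate 4, RZ replicate 1 or RZ replicate 2.

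The 3 chemokine receptors were higher in SZ as well. Cx3cr1, the fractalkine receptor of monocytes and resident macrophages, was even within SZ (8.21, 8.56, 8.54 and 8.28) and stood at 6.66, 6.66, 6.73 and 6.64 in IDZ and 6.03, 6.70, 6.74 and 6.13 in RZ. It was 3.31-fold higher in SZ than in IDZ (1.73 ± 0.15, adjusted p = 7.8e-07) and 3.99-fold higher than in RZ (2.00 ± 0.15, adjusted p = 1e-07). Ccr2, the monocyte receptor for Ccl2, had 5.90, 6.00, 6.30 and 5.47 in SZ, against 5.24, 5.22, 5.04 and 5.25 in IDZ and 4.90, 5.73, 5.11 and 5.04 in RZ, where replicate 2 overlapped SZ replicate 4. It was higher by 0.73 ± 0.18 (adjusted p = 0.0076) and 0.72 ± 0.18 (adjusted p = 0.0085). Ccr1, a receptor for inflammatory chemokines, was higher by 0.62 against IDZ and 0.97 against RZ. Of the 34 genes, 3 (Fcgr2b, Ccr1 and Ccr2) had mean signals below 5.57, under which 25% of all clusters lay. Differences on the log2 scale are compressed at such dim signals.

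No member passed the test between IDZ and RZ. Of the 34, 0 were higher in IDZ (2.78% of all clusters were) and 0 were lower (3.95% were) with limma. At an unadjusted p under 0.05 there were 1 higher, Ccr1 (0.35, 95% interval from 0.05 to 0.65, adjusted p = 0.17), and 0 lower, and ordinary one-way contrasts gave the same counts of 0, 1 and 0. The median difference was −0.01, against 0.03 over all clusters, and the single differences ran from −0.48 (Lyz2, 95% interval from −1.34 to 0.38) to 0.35 (Ccr1). These intervals leave room for differences of 2-fold or more in genes with a wide spread such as Lyz2 and Adgre1. With SZ replicate 4 and RZ replicate 2 left out together, Ctss was higher in IDZ by 0.32 (adjusted p = 0.033).

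The spread within a zone followed the same few arrays. Within SZ, replicate 2 was the highest array for 24 of the 34 genes and the lowest for 0, and replicate 4 was the lowest for 24. The same counts were not made over all clusters, so they are not shown to be particular to the myeloid genes. Over all clusters, SZ replicate 2 had the widest interquartile range of the 12 arrays (2.91) and SZ replicate 4 the narrowest (2.24). Within RZ, replicate 2 was the highest for 27 and replicate 1 the lowest for 20. Within IDZ no array led in this way, since replicate 4 was the highest for 12 genes and the lowest for 13. The median range over 4 arrays was 0.802 in SZ, 0.369 in IDZ and 0.487 in RZ. The widest ranges in RZ were those of Lyz2 (2.23), Cybb, Lcp1, Cd53 and Rac2, all highest on RZ replicate 2, whereas the ranges of Mrc1, Ctss, C1qa and C1qc in RZ were narrower than the median there.

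**Figure D3:**
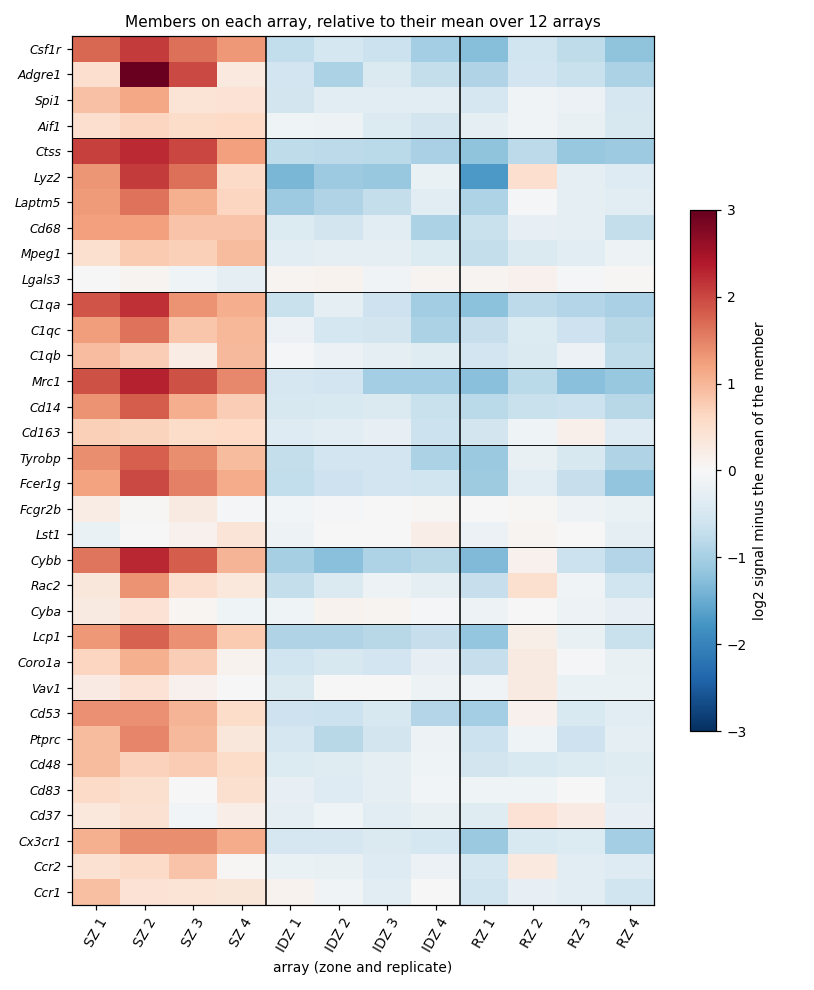
Log2 signal of each of the 34 genes (rows, grouped by role) on each of the 12 arrays (columns, zone and replicate), minus the mean of that gene over the 12 arrays. Red marks signals above the mean and blue below, and the SZ columns are red for most rows, darkest on SZ replicate 2 and palest on SZ replicate 4.

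Within the animals that gave both zones, the differences ran the same way for nearly all members. For rats 5 and 6, the mean of SZ replicates 1 and 2 was above IDZ replicate 3 for 33 of the 34 genes (median 1.50) and above RZ replicate 3 for 33 (median 1.38). For rats 7 and 8, the mean of SZ replicates 3 and 4 was above IDZ replicate 4 for 33 (median 1.20) and above RZ replicate 4 for 33 (median 1.07). The exception was Lst1 in the first pair of rats and Lgals3 in the second. Between IDZ and RZ of the same rats the direction changed from pair to pair, with 28, 9, 14 and 24 of the 34 genes higher in IDZ in rats 1 and 2, 3 and 4, 5 and 6, and 7 and 8.

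Genes that work with these members were described from 8 lists, of which 61 of 74 genes were measured. Of the 61, 39 were higher in SZ than in IDZ and 1 was lower (11.8% and 11.2% of all clusters were) by the limma test at an adjusted p under 0.05. Against RZ, 39 were higher in SZ and 0 were lower (10.0% and 11.1%), and between IDZ and RZ, 7 were higher in IDZ and 0 were lower (2.78% and 3.95%). Both ligands of Csf1r were higher in SZ than in either other zone. Csf1 was higher in SZ than in IDZ by 0.35 (adjusted p = 0.043) and higher than in RZ by 1.26, and it was higher in IDZ than in RZ by 0.91, while Il34 was higher in SZ by 0.78 and 0.81. Csf2rb, the beta chain that pairs with the unmeasured Csf2ra, was higher by 1.64 and 1.46. Il3ra, the IL-3 receptor alpha chain, was the 1 gene lower in SZ than in IDZ (−0.34, adjusted p = 0.035).

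The chemokine Ccl2, the ligand of Ccr2, had the largest difference of these 61 genes. Its signals were 10.09, 10.47, 9.94 and 9.63 in SZ, against 7.05, 7.24, 6.95 and 6.93 in IDZ and 6.44, 6.70, 6.61 and 7.19 in RZ, and it was higher in SZ by 2.99 and 3.30. Cxcl12, a chemokine that fibroblasts and vessel walls make, was higher by 2.36 and 2.85, and Cx3cl1, the ligand of Cx3cr1, by 0.41 and 0.74. In all, 4 of 9 measured chemokines were higher in SZ than in IDZ. The other 5 did not pass, with differences between −0.17 and 0.17.

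All 8 measured Toll-like receptors and partners, which sense microbial products, were higher in SZ than in both other zones, led by Tlr7 (2.35 against IDZ and 2.33 against RZ), Cd180 (1.65 and 1.89) and Tlr3 (1.64 and 2.34). All 3 measured cytosolic partners of the oxidase were higher too, by less than 2-fold (Rac1 0.52 and 0.37, Ncf1 0.48 and 0.51, Ncf4 0.38 and 0.42). Of 10 kinases and partners of immunoreceptor signalling, 8 were higher in SZ than in IDZ and 6 were higher than in RZ. Against IDZ they were led by the phosphatase Inpp5d (1.14), the kinase Lyn (0.87) and the phosphatase Ptpn6 (0.84). Of 5 further Fc and complement receptors, 4 were higher, led by C3ar1 (1.95), Fcgr1a (1.26) and Itgb2 (0.99).

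Transcription factors and genes of resident macrophages were mixed. Of 9 factors, 5 were higher in SZ than in IDZ, led by Maf (1.50), Irf5 (0.81) and Fli1 (0.58). Runx1, which cartilage cells also express, differed by −0.24 between SZ and IDZ (adjusted p = 0.20) and was higher in IDZ than in RZ by 1.19. Of 9 resident macrophage genes, 4 had higher signals in SZ than in IDZ, among them Gas6 (2.43), a ligand for receptors that clear dying cells, the folate receptor gene Folr2 (1.87) and Lyve1 (1.39), which lymphatic endothelium also expresses. The other 5 did not pass, with differences between −0.35 and 0.22.

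Markers of other tissues also differed between SZ and the other zones, most in the same direction as the myeloid genes and chondrocyte genes in the opposite one. Of all clusters, 11.8% were higher and 11.2% lower in SZ than in IDZ, and 10.0% and 11.1% than in RZ. Of 8 endothelial genes, 7 had a higher signal in SZ than in either other zone, among them Emcn (2.86 and 3.28), Plvap (2.62 and 3.11) and Cdh5 (2.31 and 2.73), with a mean level of 8.50 to 9.04 in SZ, 6.40 to 6.78 in IDZ and 6.27 to 6.48 in RZ. Of 9 pericyte and smooth muscle genes 8 were higher in SZ than in either other zone and 1, Cspg4, was lower, with mean levels of 9.14 to 9.56 in SZ, 7.39 to 7.78 in IDZ and 7.29 to 7.48 in RZ. Of 11 fibroblast genes 9 were higher in SZ than in either other zone, with mean levels of 11.00 to 11.27 in SZ, 9.32 to 9.63 in IDZ and 8.11 to 8.54 in RZ. Between IDZ and RZ, 6 of these 11 were higher in IDZ and 1 was lower. In that comparison 0 of the 34 myeloid, 0 of the 8 endothelial and 0 of the 10 chondrocyte genes passed. Of the 9 pericyte and smooth muscle genes, 1 was higher in IDZ and 0 were lower. Of all clusters, 2.78% were higher and 3.95% lower in IDZ than in RZ. Of 10 chondrocyte genes, 9 were lower in SZ than in either other zone. Of 11 osteoclast genes only 4 were measured, and Ctsk (2.21 and 2.07), Mmp9 (2.19 and 2.62) and Atp6v0d2 (0.88 and 0.72) were higher in SZ. Calcr, also measured, did not pass (−0.04 and −0.04). The mean level of these 4 was 8.54 to 8.85 in SZ, 7.11 to 7.72 in IDZ and 6.79 to 7.91 in RZ. The part that vessels, fibrous tissue and osteoclasts have in the differences of the myeloid genes was not tested.

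Few markers of other blood cells passed the test between SZ and the other zones. Of all clusters, 11.8% were higher and 11.2% lower in SZ than in IDZ, and 10.0% and 11.1% than in RZ. In lists this short, 0 calls do not show that such cells were absent. Of 13 genes of neutrophils and their precursors, of 8 erythroid genes and of 5 B cell genes, 0 were called between SZ and either other zone, and of 10 T cell genes 1, Zap70, was lower in SZ than in IDZ (−0.79) and 0 were higher. Between IDZ and RZ, 1 of the 13 neutrophil genes was lower in IDZ (3.95% of all clusters were). In that comparison 0 of the 8 erythroid genes were called, with a median difference of −0.67. Of 9 mast cell genes, 1 was higher in SZ than in IDZ and 1 was lower, and 3 were higher than in RZ and 1 was lower. Among the higher ones was Cpa3, a protease of mast cell granules (1.13 and 1.15), with 5.62, 5.91, 5.64 and 4.53 on SZ replicates 1 to 4. The mast cell genes had no common direction. Their differences ran from −0.87 to 1.13 against IDZ (median 0.03) and from −1.05 to 1.15 against RZ (median −0.01). Erythroid and neutrophil genes varied between arrays of 1 zone. In SZ and RZ their extremes fell on arrays where the myeloid genes stood apart. In IDZ they varied as well, while the mean level of the myeloid genes hardly did. The mean level of the erythroid genes was 7.99, 8.82, 8.28 and 7.01 in SZ, against 7.25, 7.35, 8.07 and 8.35 in IDZ and 7.24, 9.17, 8.87 and 8.30 in RZ. The highest of these 12 values was on RZ replicate 2 and the lowest on SZ replicate 4. The neutrophil level ran from 6.05 to 6.75 in SZ, from 5.94 to 6.45 in IDZ and from 6.06 to 7.08 in RZ, again highest on RZ replicate 2. The mean level of the 34 myeloid genes was 8.16, 8.47, 8.11 and 7.83 in SZ, against 6.75, 6.78, 6.78 and 6.76 in IDZ and 6.50, 7.07, 6.85 and 6.65 in RZ. On all 4 SZ arrays this level was above that of every IDZ and RZ array. The part of blood or marrow in the spread within a zone was not tested.

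**Figure D4:**
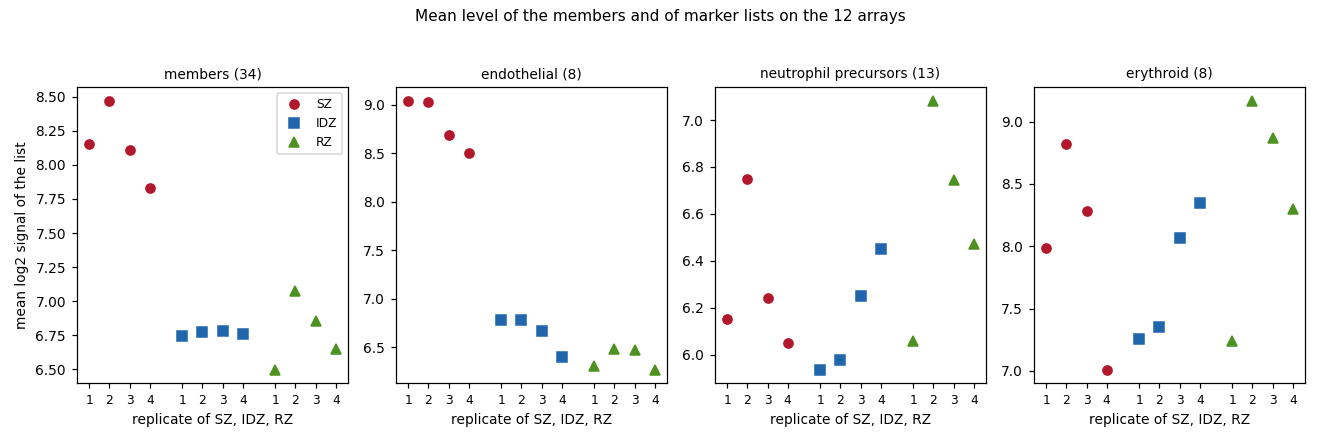
Mean log2 signal (y axes, each with its own range) of the 34 myeloid genes, 8 endothelial, 13 neutrophil precursor and 8 erythroid genes on the 12 arrays (x axis, replicates 1 to 4 of SZ, IDZ and RZ from left to right). The myeloid and endothelial levels are higher on the 4 SZ arrays than on all others, and the neutrophil and erythroid levels are highest on RZ replicate 2.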

How the data were processed

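The authors deposited log2 values of 12 Affymetrix arrays, made by RMA (background correction, quantile normalization and probe summary) in Partek 6.6 according to the submitters' processing notes, and these log2 values were used without further scaling. Of the 27342 transcript clusters, 15068 carried 1 gene symbol in the platform annotation, 323 several and 11951 none, and all entered the tests. Zones were compared with limma 3.58.1 in R 4.3.3, with 1 mean per zone over the 12 arrays, 3 contrasts, moderated variances and Benjamini-Hochberg adjustment within each comparison. A gene was called at an adjusted p under 0.05, and also with a minimum of 2-fold, the rule of the study. Python 3.11.15 with pandas 2.3.3 served for tables and matplotlib 3.10.9 for plots. The scripts were tested on simulated data.

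The members, role groups, pathway lists and marker lists were chosen with earlier results of these data known. All members are named, with full statistics for up to 2 leading members of a role group and for members that went against their group. Of each pathway list up to 3 genes with the largest differences that passed are named, and of each marker list up to 3 of the brightest. Il3ra, Runx1, Zap70, Cpa3, Atp6v0d2, Calcr and Prg4 were chosen after their values were seen.

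The sample labels and the methods tie IDZ and RZ of 1 number to the same 2 rats. Deviations from the zone means of such pairs correlated by 0.02, 0.02, 0.03 and 0.21, and the correlation within animal pairs estimated over all 12 arrays was −0.14. No block was used in the reported fit, as in the study. Alternatives were other tests, blocks by animal pair, other normalizations, a filter on dim clusters and leaving out each array.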

Additional observations from a re-analysis of the deposited data

Results flagged for a closer look

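Of 105 groups of 4 arrays (each gene and the mean level of the 34 genes, in each zone), 3 had an array far from the others by Dixon's test, and chance marks about 1 in 20 groups. Spi1 was 6.37 on IDZ replicate 1, against 6.58 to 6.59 on the other IDZ arrays. Lgals3 was 9.77 on IDZ replicate 3, against 9.95 to 9.98. Ccr1 was 5.91 on SZ replicate 1, against 5.37 to 5.43 on the other SZ arrays.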

How the results depend on the processing

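With 23 alternatives, the counts of called genes between SZ and the other zones stayed within 1.5 times of those reported. Of the values for single genes between SZ and the other zones, 1530 kept direction and side of the threshold, 19 gained a call, 7 lost one, all of Rac2, and 2 changed sign. The 2 were Lst1 in SZ minus IDZ, which ran from −0.020 to 0.17 when 1 array was left out and was −0.020 with SZ replicate 4 and RZ replicate 2 left out together, an alternative chosen after seeing the data. The median of SZ minus IDZ was 1.60 with dim clusters left out, because fewer genes remained. Between IDZ and RZ, the overall one-way p, which covers all 3 zones by construction, gave 13 genes higher in IDZ and 14 higher in RZ, and leaving out both named arrays gave 1 higher in IDZ (Ctss).

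Without 1 array, the counts higher in SZ by at least 2-fold were 20 to 24 against IDZ and 20 to 23 against RZ. With a fixed replicate block for the animal pair, 20 genes exceeded 2-fold in SZ over IDZ and 22 in SZ over RZ, and the block changed no count of calls by more than 1.5 times. Each gene had 1 cluster, so alternatives between clusters gave no values. With 4 arrays a zone, small differences such as those between IDZ and RZ could not be resolved.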
